A study of Rattus norvegicus with 20 samples.

Results

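The 9 Chd genes of the rat, Chd1 to Chd9, were followed across brain white matter and injured spinal cord. Each gene was taken by its symbol from a table of 30443 genes, and each of the 9 symbols had a single entry. The family was chosen by the measured FPKM of Chd9, which varied strongly between animals and regions, so the levels of Chd9 are given as a description without a test and are set beside those of the other 8 genes. All 9 genes were among the 15210 genes that reached 1 FPKM in at least 1 library, and no value of theirs was at the 0.1 floor of the table. FPKM are fragment numbers divided by transcript length and by the mapped reads of the library. Levels of different genes can be compared only as far as the transcript lengths and the assignment of fragments hold. This was not tested.

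The libraries came from 5 regions in each of 4 wild type female Long-Evans rats (an outbred strain) of about 6 to 8 months, 20 libraries in all. All 4 animals had a contusion of one side of the cord at cervical level 4 and, 2 weeks later, electrodes implanted in contralateral motor cortex. In the 2 stimulated animals the cortex was later stimulated for 1 week, for 5 h a day at 10 Hz and 80% of the movement threshold. Current was given in cycles of 5 min on and 2 min off, while the 2 control animals were connected without current. Region 1 was white matter under the implant, region 2 the matching white matter of the opposite hemisphere, and regions 3, 4 and 5 were cord above, at and below the lesion, gray matter included. The control and stimulated animals are called control 1, control 2, stimulated 1 and stimulated 2, and every animal gave all 5 regions. The animals were separate, but the regions of an animal share that animal, so comparisons between regions rest on 4 animals.

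Chd proteins are large enzymes that use ATP to slide, evict or space nucleosomes, and they carry paired chromodomains, which read methylated histone tails, ahead of a helicase-type motor. Chd1 and Chd2 work at transcribed genes. Chd3, Chd4 and Chd5 are alternative motors of the NuRD complex, which joins remodeling to histone deacetylation, and Chd5 is known as the form of neurons. Chd6, Chd7, Chd8 and Chd9 form the remaining subfamily, in which Chd7 works with Sox10 in oligodendrocytes and Chd8 is a regulator of Wnt signaling and brain development.

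The tissue labels were checked against marker genes. Spinal neuron markers summed to 0.59 to 4.72 FPKM in the 8 white matter libraries and to 69.8 to 106 FPKM in the 12 cord libraries. Cortical neuron markers summed to 358 to 582 FPKM in white matter, against 5.43 to 24.8 FPKM in cord, and all 4 of them (Slc17a7, Tbr1, Neurod6 and Camk2a) were higher there by limma. Oligodendrocyte markers summed to 672 to 2803 FPKM in white matter against 7103 to 10417 FPKM in cord. The blocks labelled as white matter therefore held RNA of cortical neurons and less myelin RNA than the cord. The region 2 library of stimulated 2 stood apart, with lesion phagocyte markers at 52.6 FPKM where the other 3 libraries of region 2 held 4.72 to 6.26 FPKM. Between 12497 and 13546 genes reached 1 FPKM in a library, and the read depth behind an FPKM value is not in the table.

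The promoters of the 3 genes on which the results turn most are printed from RefSeq, build GRCr8, each with 250 bases before and 50 after an annotated transcript start. Chd3 and Chd5 are shown because they had the largest differences between tissues among Chd1 to Chd8, and Chd9 because of its spread. Capitals mark the GC box (GGGCGG, or CCGCCC on the other strand), the letters that factors of the Sp family bind.
Chd3, chr10:54588761-54589060, minus strand: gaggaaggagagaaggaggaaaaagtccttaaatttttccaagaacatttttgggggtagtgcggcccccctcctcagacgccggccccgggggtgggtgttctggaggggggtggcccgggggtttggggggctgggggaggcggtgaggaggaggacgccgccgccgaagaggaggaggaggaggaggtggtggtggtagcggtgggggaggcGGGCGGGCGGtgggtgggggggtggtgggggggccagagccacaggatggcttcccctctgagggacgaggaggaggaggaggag
Chd5, chr5:168130862-168131161, plus strand: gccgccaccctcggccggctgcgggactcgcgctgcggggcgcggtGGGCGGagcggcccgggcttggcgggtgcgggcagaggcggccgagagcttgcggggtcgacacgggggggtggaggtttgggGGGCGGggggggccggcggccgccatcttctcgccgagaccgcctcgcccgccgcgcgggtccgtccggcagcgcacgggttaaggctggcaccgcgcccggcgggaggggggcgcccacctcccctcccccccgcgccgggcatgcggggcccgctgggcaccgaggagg
Chd9, chr19:32264494-32264793, minus strand: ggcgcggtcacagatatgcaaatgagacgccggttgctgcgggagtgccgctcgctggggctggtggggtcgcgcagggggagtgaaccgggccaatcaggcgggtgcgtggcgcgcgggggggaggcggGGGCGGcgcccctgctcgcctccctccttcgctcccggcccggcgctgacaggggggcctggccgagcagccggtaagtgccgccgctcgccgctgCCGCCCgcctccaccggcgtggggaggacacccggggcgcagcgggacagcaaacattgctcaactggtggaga
Each of the 3 windows held 2 GC boxes, which in Chd3 overlap, and at least 1 GC box was found in 33.1% of the 33469 promoter windows of the same length. CG pairs numbered 15 in Chd3, 46 in Chd5 and 36 in Chd9, against a median of 7 over all windows. Windows were found for 6 of the 9 genes, namely Chd1, Chd3, Chd4, Chd5, Chd6 and Chd9, and not for Chd2, Chd7 and Chd8. Chd9 had 14 start windows, spread over 155319 bases, and 4 of them held a GC box. The window shown is that with the most CG pairs, so its 36 against the median follows from the choice. CG pairs in the 14 ranged from 2 to 36, and 10 of them were at or under the median of 7. Some of the 14 windows overlap almost in full. RefSeq listed 15 transcripts of Chd9 and 4 to 25 for the other 8 genes, and the values here are per gene, so they cannot be assigned to a start.

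Chd9 (ENSRNOG00000049302), a chromodomain helicase first described in bone-forming stromal cells, had the highest mean of the 9 genes in every region. In white matter it stood at 49.0 ± 38.2 FPKM in region 1 and 106 ± 18.2 FPKM in region 2 (mean ± SD, n = 4 animals each). In cord it stood at 71.3 ± 68.4 FPKM above, 112 ± 87.5 FPKM at and 87.3 ± 62.9 FPKM below the lesion (n = 4 each). The order of regions by mean was therefore 4, 2, 5, 3 and 1, but the ranges of every pair of neighbours in that order overlapped.

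The single libraries show where this spread lay. In region 1, Chd9 stood at 75.9 FPKM in control 1, 87.7 in control 2, 17.2 in stimulated 1 and 15.3 in stimulated 2. In region 3, it stood at 104 FPKM in control 1, 152 in control 2, 14.3 in stimulated 1 and 15.1 in stimulated 2. In both regions the stimulated libraries were low and did not overlap the control libraries. In region 5, the levels were 125 FPKM in control 1, 153 in control 2, 57.1 in stimulated 1 and 14.8 in stimulated 2, so the stimulated libraries were again the lower ones and differed from each other.

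The remaining regions did not have this order. In region 2, Chd9 stood at 112 FPKM in control 1, 80.6 in control 2, 107 in stimulated 1 and 124 in stimulated 2. In region 4, at the lesion, it stood at 33.5 FPKM in control 1, 122 in control 2, 231 in stimulated 1 and 62.3 in stimulated 2. Control and stimulated libraries overlapped in both, and region 4 held both the highest Chd9 level of all 20 libraries and the lowest level of any control library.

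Sorted by level, 5 libraries formed a narrow group between 14.3 and 17.2 FPKM: regions 1 and 3 of both stimulated animals and region 5 of stimulated 2. The next library, region 4 of control 1, was 1.95-fold above the highest of them, and the other 15 libraries spread from 33.5 to 231 FPKM. Highest and lowest library differed 16.2-fold, or by 4.02 on the log2 scale. Within animals the ratio of the highest to the lowest region was 3.72 in control 1, 1.90 in control 2, 16.2 in stimulated 1 and 8.37 in stimulated 2. Both stimulated animals thus held libraries of the low group as well as libraries above 100 FPKM.

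**Figure D1:**
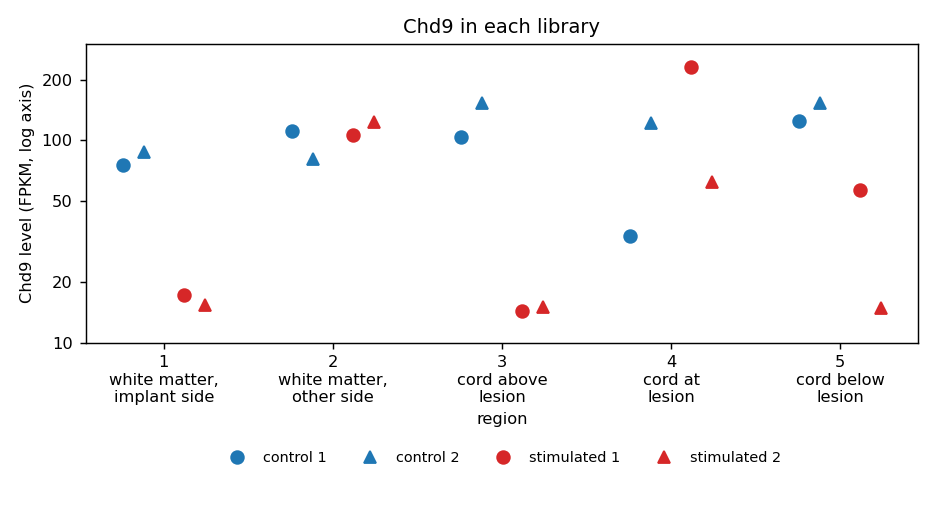
Chd9 level (FPKM, log axis) in each of the 20 libraries by region, with circles for animal 1 and triangles for animal 2 of the control (blue) and stimulated (red) groups. The 5 libraries between 14.3 and 17.2 FPKM are stimulated libraries of regions 1, 3 and 5, while the groups overlap in regions 2 and 4.

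As mean log2 differences, stimulated minus control, Chd9 stood at -2.33 under the implant and 0.28 on the opposite side, and in cord at -3.10 above, 0.91 at and -2.25 below the lesion, with 2 animals a group. The value of region 2 lay between 0.038 (without control 2) and 0.51 (without control 1). That of region 4 rested on single libraries, since it was -0.038 without stimulated 1, -0.025 without control 1, 1.84 without control 2 and 1.85 without stimulated 2. The value of region 5 was -1.27 without stimulated 2 and -3.22 without stimulated 1. Between tissues the ranges of Chd9 overlapped, with a mean of 77.4 ± 41.1 FPKM in white matter (n = 8 libraries) and 90.3 ± 68.9 in cord (n = 12), a log2 difference of -0.01 that lay between -0.30 (without stimulated 2) and 0.24 (without control 2) when each animal was left out. Region 1 was lower than region 2 in 3 of 4 animals (mean log2 difference -1.52), and region 4 was higher than region 3 in 2 of 4 (1.03, but 0.034 without stimulated 1 and 1.92 without control 1).

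The other 8 genes had smaller ranges. The sum of Chd1 to Chd8 ranged from 79.0 to 119 FPKM over the 20 libraries, a 1.51-fold range. Singly, Chd7 ranged 5.10-fold, Chd5 3.88-fold and Chd3 3.48-fold, and the other 5 genes 1.20-fold to 1.85-fold, against 16.2-fold for Chd9. Chd9 made up between 13.3% and 71.5% of the summed level of all 9 genes, with a median of 43.3%, and was the highest of the 9 in 15 libraries. In the 5 libraries of the low group it took rank 2, 3 or 4, behind Chd4, behind Chd3 and Chd4, or behind Chd3, Chd4 and Chd5. Over 20 libraries the Pearson correlation of log2 FPKM between Chd9 and each of the other 8 genes lay between -0.16 and 0.17. These libraries share animals, so the coefficients are a description.

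The log2 levels of each gene were split into a part for region, a part for animal and a remainder. Each animal was either control or stimulated, so the part for animal includes any difference between these groups. The remainder likewise includes any group difference that varied between regions. For Chd9, region held 20.2% of the sum of squares, animal 31.1% and the remainder 48.8%. Over all 15210 genes the median shares were 67.6% for region, 7.86% for animal and 21.7% for the remainder. The remainder of Chd9 had an SD of 1.17 on the log2 scale, against a median of 0.17 over all genes. Among the 5162 genes with a mean of at least 10 FPKM, 158 had a larger SD over libraries than Chd9 and 16 a larger SD of the remainder. By their degrees of freedom alone, region would hold 21.1%, animal 15.8% and the remainder 63.2%, so the share of animal in Chd9 was above that mark, the share of region close to it and the remainder below it. Chd9 was chosen for its variation between animals and regions, so its shares and ranks only describe that choice.

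**Figure D2:**
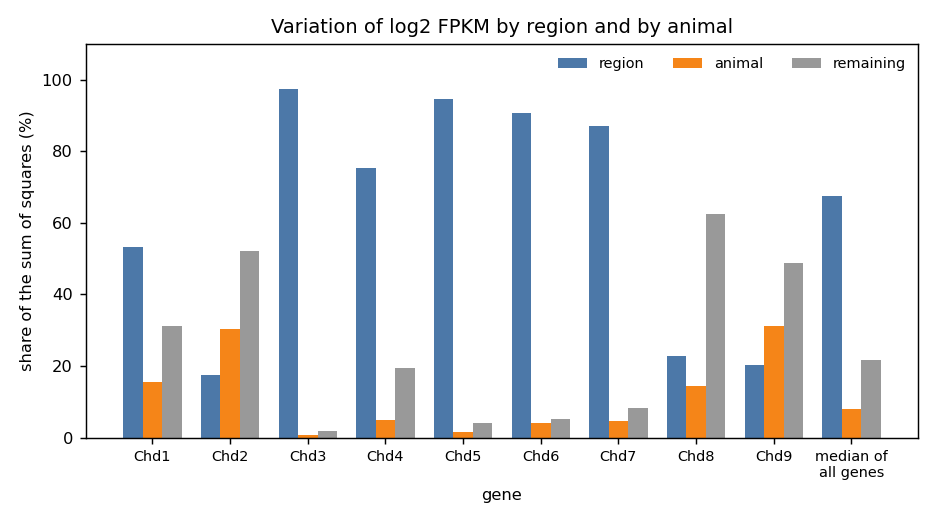
Share of the sum of squares of log2 FPKM (percent) that went to region (blue), animal (orange) and the remainder (gray), for each Chd gene and as the median of all 15210 genes. Region took 97.6% in Chd3 and 94.6% in Chd5, but 20.2% in Chd9, 22.9% in Chd8 and 17.6% in Chd2. The animal share includes any difference between control and stimulated animals.

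The low share of region in Chd2 and Chd8 came with little variation of any kind, unlike in Chd9. Chd2, a motor of active chromatin known from childhood epilepsy, ranged from 6.02 to 7.24 FPKM over the 20 libraries, and Chd8 from 6.27 to 8.24 FPKM. Their SD on the log2 scale was 0.07 and 0.11, against 1.33 for Chd9. Of the 15210 genes, 15208 had a larger SD than Chd2.

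Chd9 was compared over 20 libraries with 12199 genes that had a named symbol and a mean of at least 1 FPKM. The highest Pearson r of log2 levels, with r without the 2 farthest libraries in brackets, were Zfp958 0.60 (0.49), Fmn1 0.55 (0.57), Mterfd3 0.53 (0.44), Mcmdc2 0.52 (0.42) and Zranb3 0.51 (0.59). The lowest were Adora2a -0.58 (-0.67), Acer2 -0.58 (-0.47) and Fbln5 -0.56 (-0.50). A gene outside this list reached r = 0.68. These are the extremes of 12199 coefficients over libraries that share animals, for a gene chosen for its variation. Whether they exceed the extremes that unrelated genes would reach was not tested, so they are a description. None of the 5 most similar genes had the range of Chd9, since their highest library was 1.39-fold to 2.44-fold above their lowest. The neighbours of Chd9 on its chromosome in RefSeq were looked up after its values were seen. Aktip ranged from 23.3 to 52.0 FPKM (r = 0.07 with Chd9), Rbl2 from 5.42 to 9.05 FPKM (r = -0.07) and Tox3 from 0.58 to 1.77 FPKM (r = 0.16). A pseudogene lies inside Chd9 in RefSeq, and fragments in such overlaps cannot be assigned with certainty, so the level of Chd9 is uncertain to that extent. Chd9 was set beside 4 of the marker lists. With the cortical neuron sum r was 0.82 over 8 white matter libraries (0.13 without the 2 farthest) and -0.16 over 12 cord libraries, and with the lesion phagocyte sum it was -0.74 (-0.12) and 0.25. With the general neuron sum it was 0.77 (0.38) and -0.02, and with the oligodendrocyte sum -0.56 (-0.09) and -0.17.

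Of the other 8 genes, Chd3 and Chd5 (NuRD motors) were higher in white matter than in cord, and Chd4, Chd6 and Chd7 were lower. The tests were fitted by limma over all 15210 genes with a mean per region, with p-values adjusted by the Benjamini-Hochberg method. The fit had no term for the animal, so libraries of the same animal were treated as independent. The SE and p-values of the region comparisons therefore rest on the spread between libraries, as if each came from a separate animal. By these tests 5 of the 8 genes passed 0.05, while 72.2% of all genes passed, 25.0% upward and 47.1% downward, so the count itself was below the background. Groups did not overlap for 3 of the 8 genes, against 27.1% of all genes. The median of all genes was -0.18 on the log2 scale (-0.04 after quantile normalization and -0.10 after upper-quartile scaling), and differences relative to it are given beside each value. In bulk tissue, fewer cells of a type and less RNA per cell cannot be told apart.

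Chd3 (ENSRNOG00000009722) ranged from 29.0 through a median of 34.5 to 39.5 FPKM in the 8 white matter libraries. In the 12 cord libraries it ranged from 11.3 through 13.4 to 18.1 FPKM. The tissues did not overlap, and in 4 of 4 animals both white matter libraries were above all cord libraries. The mean was 34.5 ± 3.13 FPKM in white matter and 14.1 ± 2.22 in cord, 2.45-fold, with a limma log2 difference of 1.30 (SE 0.06, adjusted p = 1.63e-13), or 1.48 relative to the median of all genes.

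Chd5 (ENSRNOG00000011268) ranged from 17.1 through a median of 25.9 to 28.4 FPKM in white matter. In cord it ranged from 7.32 through 9.48 to 14.7 FPKM. Again the tissues did not overlap and 4 of 4 animals had the same order. The means were 24.4 ± 3.91 and 10.3 ± 2.38 FPKM, 2.38-fold, with a limma log2 difference of 1.27 (SE 0.08, adjusted p = 5.01e-11), or 1.44 relative to all genes. Chd3 and Chd5 correlated at r = 0.68 over the 8 white matter libraries, which fell to 0.15 without the 2 farthest libraries, and at r = 0.93 over the 12 cord libraries (0.87 without the 2 farthest). Chd5 also followed the summed cortical neuron markers, at r = 0.90 in white matter (0.36 without the 2 farthest) and 0.92 in cord (0.88), in libraries that share animals. In cord that cortical list summed to only 5.43 to 24.8 FPKM. With the lesion phagocyte markers Chd5 correlated at r = -0.86 in white matter (-0.72) and -0.90 in cord (-0.84). Its r with general neuron markers was 0.88 (0.49) and 0.64 (0.60), and with oligodendrocyte markers -0.52 (-0.52) and -0.05 (0.31). For Chd3, r was 0.77 (0.12) and 0.86 (0.71) with cortical and 0.52 (-0.22) and 0.52 (0.44) with general neuron markers. It was -0.25 (0.18) and -0.79 (-0.64) with phagocyte and 0.20 (0.25) and -0.10 (0.27) with oligodendrocyte markers. The part of neurons and phagocytes in the levels of Chd3 and Chd5 was not tested.

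Chd4 (ENSRNOG00000018309), the NuRD motor of most tissues, went the other way. It ranged from 20.7 through a median of 22.9 to 25.8 FPKM in white matter and from 24.9 through 28.7 to 33.2 FPKM in cord. The ranges touched, but within 4 of 4 animals both white matter libraries were below all cord libraries. The limma log2 difference was -0.33 (SE 0.06, adjusted p = 3.72e-05), or -0.15 relative to all genes. As a result the NuRD motor with the highest level was Chd3 in both white matter regions and Chd4 in all 3 cord regions, and the ranges of Chd3 and Chd4 did not overlap in any of the 5 regions.

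Chd6 (ENSRNOG00000016744), a remodeler linked to the response to oxidative stress, ranged from 6.37 through a median of 7.35 to 8.40 FPKM in white matter. It ranged from 10.0 through 10.5 to 11.8 FPKM in cord, with no overlap and the same order in 4 of 4 animals. The limma log2 difference was -0.53 (SE 0.05, adjusted p = 1.39e-08), or -0.36 relative to all genes.

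Chd7 (ENSRNOG00000006689), the gene of CHARGE syndrome, was the lowest of the 9 in every region. It ranged from 0.92 through a median of 1.89 to 3.21 FPKM in white matter and from 3.09 through 3.60 to 4.67 FPKM in cord. White matter was low except for region 1 of stimulated 2, whose 3.21 FPKM lay inside the cord range, and the order held in full within 3 of 4 animals. The limma log2 difference was -1.13 (SE 0.12, adjusted p = 1.44e-07), or -0.95 relative to all genes.

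The other 3 genes did not pass the limma test. Chd1 (ENSRNOG00000014434), which binds a histone mark of active promoters, stood at 5.45 ± 0.70 FPKM in white matter and 5.91 ± 0.90 in cord, with a log2 difference of -0.11 (SE 0.07, adjusted p = 0.17). Without stimulated 2 it was -0.21 and passed (limma adjusted p = 0.00811). Chd2 (ENSRNOG00000012716) stood at 6.95 ± 0.20 and 6.70 ± 0.33 FPKM, a log2 difference of 0.05 (SE 0.04, limma adjusted p = 0.25) that became 0.14 (adjusted p = 0.00809) after quantile normalization. Chd8 (ENSRNOG00000025011), a gene linked to autism, stood at 7.24 ± 0.73 and 7.34 ± 0.44 FPKM, a log2 difference of -0.02 (SE 0.05, limma adjusted p = 0.69) whose sign turned after quantile normalization (0.06).

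**Figure D3:**
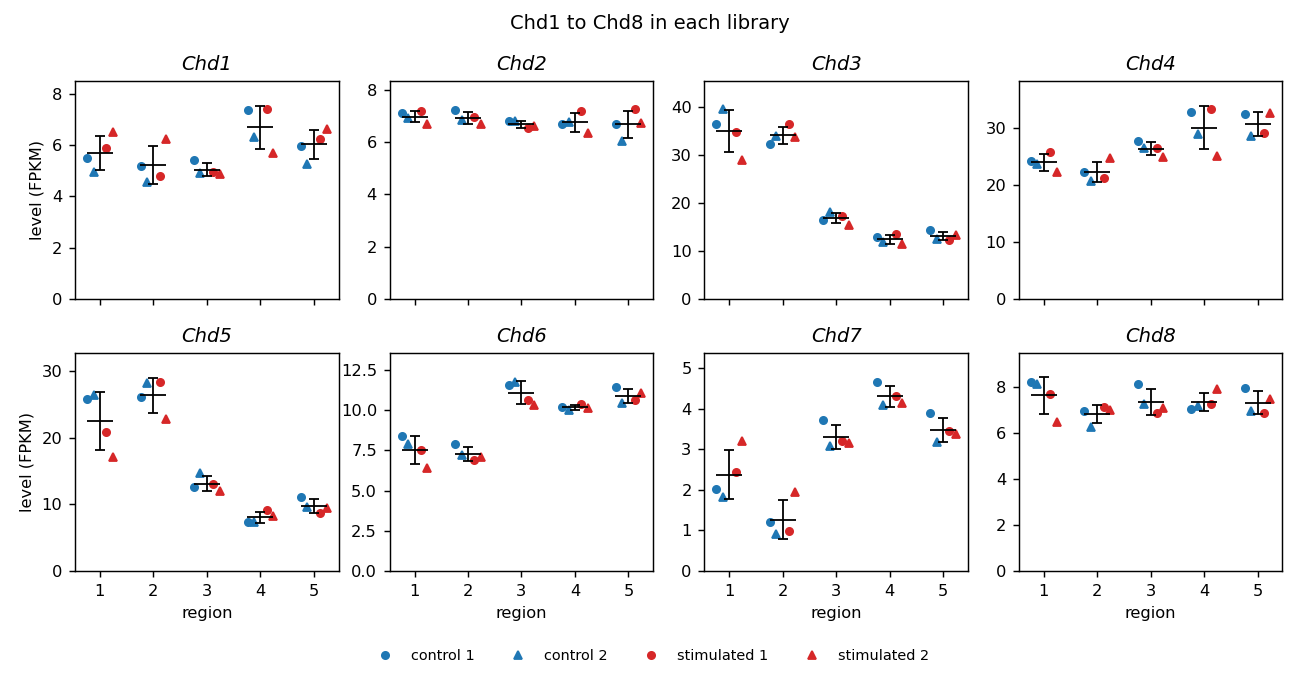
Levels (FPKM, linear axes from 0) of Chd1 to Chd8 in each library by region, with blue for control and red for stimulated animals, circles for animal 1 and triangles for animal 2, and black bars for the mean and SD of 4 libraries. Chd3 and Chd5 are high in regions 1 and 2, Chd6 and Chd7 are low there, and Chd2 stays between 6.02 and 7.24 FPKM.

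Lists of partner and related genes were compared in the same limma fit. Beside the counts that follow stand the 25.0% of all genes that were higher and the 47.1% that were lower in white matter, and their median of -0.18. Of 11 NuRD subunits found (Hdac1 had no entry), 2 were higher and 4 lower in white matter, and 5 did not pass, with a median log2 difference of -0.07. The largest differences were in Gatad2a, a scaffold subunit (-0.59, SE 0.08, adjusted p = 2.82e-06), and Cdk2ap1 (-0.53, SE 0.06, adjusted p = 1.36e-07). The summed NuRD subunits ranged from 183 to 220 FPKM in white matter and from 194 to 265 FPKM in cord.

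The other remodeler families also held genes of both directions. Of 26 SWI/SNF genes, 7 were higher and 11 lower in white matter, with a median log2 difference of -0.05, and the largest differences were in Dpf1 (2.16, SE 0.06, limma adjusted p = 3.83e-16) and Actl6b (1.29, SE 0.06, limma adjusted p = 1.88e-13), both subunits of the neuronal form of the complex. Of 11 ISWI genes, 4 were higher and 5 lower (median -0.10), led by Cecr2 (-1.23, SE 0.10, limma adjusted p = 2.23e-09) and Baz2b (-0.97, SE 0.05, limma adjusted p = 1.48e-12). Of 8 INO80 and SRCAP genes found (Srcap had no entry), 2 were higher and 2 lower (median 0.01), led by Ruvbl2 (-0.32) and Vps72 (0.19).

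The 5 oligodendrocyte factors listed (Sox10, Olig1, Olig2, Myrf and Nkx2-2) were all lower in white matter, with a median log2 difference of -1.68 against -0.18 over all genes. Nkx2-2 (-1.88, SE 0.16, limma adjusted p = 2.36e-09) and Myrf (-1.76, SE 0.12, limma adjusted p = 1.07e-10), which drive oligodendrocyte maturation, led the list. Of 10 other large chromatin genes found, 5 were higher and 3 lower (median 0.21), led by Ncor1 (0.77) and Atrx (0.60). Of 5 nuclear long non-coding RNAs looked for, Miat alone had an entry, and it was higher in white matter (1.10, SE 0.08, limma adjusted p = 2.04e-10).

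The white matter of the implanted hemisphere was then compared with that of the opposite side. Of the 8 genes, 1 passed the limma test, Chd7, while 8.61% of all genes passed, and 0 of the 8 had regions without overlap, against 7.57% of all genes. In region 1, Chd7 stood at 2.02 FPKM in control 1, 1.83 in control 2, 2.45 in stimulated 1 and 3.21 in stimulated 2. In region 2, it stood at 1.21 FPKM in control 1, 0.92 in control 2, 0.98 in stimulated 1 and 1.96 in stimulated 2. Region 1 was higher in 4 of 4 animals, although the regions overlapped through stimulated 2, which was the highest in both.

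The limma log2 difference of Chd7 was 0.94 (SE 0.19, adjusted p = 0.00787). It was lost when an animal was left out, with a limma adjusted p of 0.0754 without control 1, 0.0748 without control 2 and 0.212 without stimulated 1, at log2 differences of 1.01, 0.93 and 0.82. Without stimulated 2 it held, and Chd4 (0.20) and Chd8 (0.25) passed as well (limma adjusted p = 0.0421 and 0.0399). The 7 genes that did not pass had log2 differences between -0.24 (Chd5) and 0.16 (Chd8), with limma adjusted p of at least 0.241.

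Chd7 was set beside the same 4 marker lists as Chd9, among them lesion phagocytes (Cd68, Gpnmb, Lgals3 and Cd14). The phagocyte sum in region 1 was 45.5 FPKM in control 1, 49.5 in control 2, 137 in stimulated 1 and 248 in stimulated 2, and 3 of the 4 markers passed upward against region 2. Over the 8 white matter libraries the log2 level of Chd7 correlated with the log2 of this sum at r = 0.98 (0.98 also without the 2 farthest libraries), and over the 12 cord libraries at r = 0.79 (0.65). Chd7 also correlated with the oligodendrocyte markers, all 5 of which were higher in region 1, at r = 0.79 in white matter (0.52) and 0.10 in cord (0.12). With the general neuron markers its r was -0.82 in white matter (-0.95) and -0.69 in cord (-0.64), and with the cortical ones -0.67 (-0.85) and -0.73 (-0.62). In all, 34 such pairs were computed over libraries that share animals and that differ by region within each tissue, the 4 libraries of a region being too few for a coefficient of their own. Correlations of Chd7 with the other glial lists were not computed, so the link is not shown to be particular to phagocytes. Oligodendrocyte progenitor markers summed to 34.1 to 40.8 FPKM in region 1 and 16.6 to 33.5 in region 2. Astrocyte markers summed to 913 to 1303 FPKM in region 1 and 442 to 1169 in region 2. Microglia markers summed to 94.0 to 173 FPKM in region 1 and 45.0 to 213 in region 2. The part of these cell types in the level of Chd7 was not tested. Of the 5 oligodendrocyte factors, 4 were higher in region 1 by limma, led by Myrf (1.07, SE 0.18, adjusted p = 0.0030).

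Along the cord, Chd1 was higher and Chd3 and Chd5 were lower at the lesion than above it. These 3 of the 8 genes passed the limma test, against 19.6% of all genes (6.78% upward and 12.8% downward). The regions did not overlap for 4 of the 8, against 28.8% of all genes. Chd5 stood at 7.39 FPKM in control 1, 7.32 in control 2, 9.15 in stimulated 1 and 8.32 in stimulated 2 in region 4. In region 3 it stood at 12.6, 14.7, 13.0 and 12.0 FPKM in the same animals. The regions did not overlap, and the limma log2 difference was -0.71 (SE 0.13, adjusted p = 0.00103).

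Chd3 stood at 12.9, 11.9, 13.5 and 11.3 FPKM in region 4 of control 1, control 2, stimulated 1 and stimulated 2. It stood at 16.5, 18.1, 17.3 and 15.5 FPKM in region 3 of the same animals, again without overlap. The limma log2 difference was -0.44 (SE 0.09, adjusted p = 0.00219) and missed the threshold only without control 2 (adjusted p = 0.0576). Of the neuron markers, 3 of 5 general and 3 of 4 cortical ones were lower at the lesion and 0 were higher, while of the 4 spinal neuron markers 1 was higher and 0 were lower. Their part in the levels of Chd3 and Chd5 was not tested.

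Chd1 stood at 7.38, 6.33, 7.39 and 5.68 FPKM in region 4 of the 4 animals in the same order, and at 5.41, 4.91, 4.94 and 4.86 FPKM in region 3. It was higher at the lesion in 4 of 4 animals, with a limma log2 difference of 0.41 (SE 0.11, adjusted p = 0.0184). The call was lost without control 1, control 2 or stimulated 1 (limma adjusted p = 0.125, 0.0850 and 0.144), at log2 differences of 0.39, 0.42 and 0.35. Chd4 and Chd7 were also higher in 4 of 4 animals without passing, at log2 differences of 0.18 (limma adjusted p = 0.152) and 0.39 (adjusted p = 0.159), and Chd4 passed after quantile normalization (0.21, adjusted p = 0.00248) and after upper-quartile scaling (0.22, adjusted p = 0.00103). Without stimulated 2 both Chd4 and Chd7 passed (limma adjusted p = 0.0172 and 0.0490). Lesion phagocyte markers summed to 258 to 755 FPKM in region 4 and to 62.6 to 109 FPKM in region 3.

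Between the lesion and the cord below it, 0 of the 8 genes passed the limma test, while 7.99% of all genes did, and 1 gene, Chd5, had an unadjusted p under 0.05. The median of all genes was -0.14 on the log2 scale here (-0.03 after quantile normalization and 0.02 after upper-quartile scaling). Chd5 had a log2 difference of -0.27 (SE 0.13, limma adjusted p = 0.161), or -0.13 relative to all genes. Its adjusted p was the smallest of the 8. Regions did not overlap for 2 of the 8 genes, Chd6 and Chd7, against 18.1% of all genes. Chd7 was higher at the lesion in 4 of 4 animals (4.09 to 4.67 against 3.17 to 3.90 FPKM), a log2 difference of 0.31 (limma adjusted p = 0.294), or 0.45 relative to all genes. Chd6 was lower in 4 of 4 animals (10.02 to 10.36 against 10.42 to 11.43 FPKM), a log2 difference of -0.10 (limma adjusted p = 0.427). Relative to the median of all genes it was 0.04, so its lower FPKM did not exceed the general difference.

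**Figure D4:**
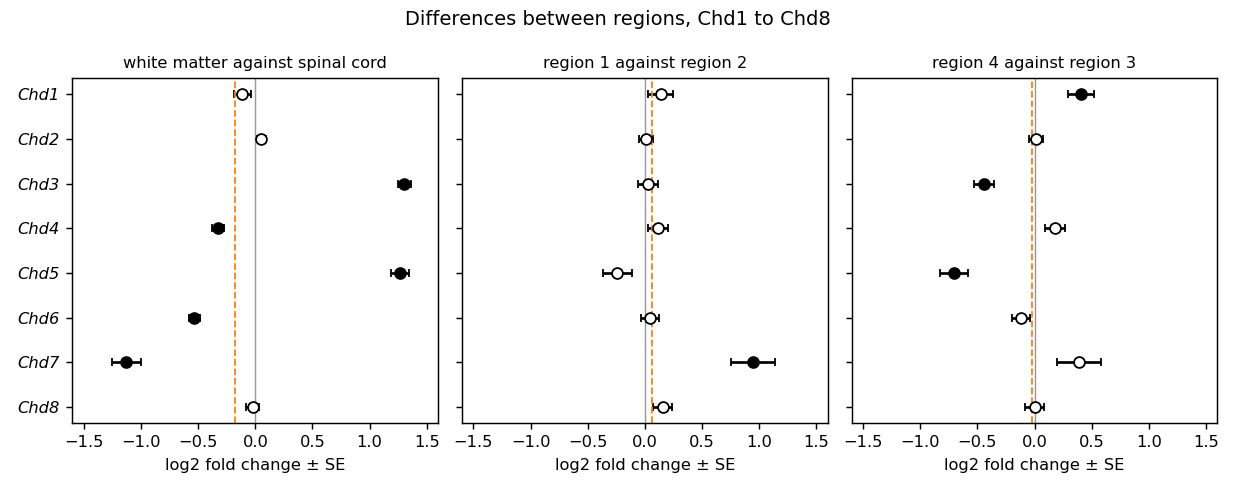
Log2 fold change with its SE from limma for Chd1 to Chd8 in 3 comparisons of regions, with filled circles for genes past an adjusted p of 0.05, open circles for the others and a dashed line at the median of all genes. White matter against cord has 5 filled circles, region 1 against region 2 has Chd7 alone, and region 4 against region 3 has Chd1, Chd3 and Chd5.

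The effect of stimulation on Chd1 to Chd8 was tested within each region, with 2 animals against 2. By limma 0 of the 8 genes passed in any of the 5 regions. Of all 15210 genes, 0.0% passed in regions 1, 2, 3 and 4 and 0.0197% in region 5, so the count of the 8 genes lay at the background. Of the 72 genes of the partner and remodeler lists, 0 passed limma in any region, and an unadjusted p under 0.05 was reached by 2 of them in region 3 and by 0 in the other regions. An unadjusted p under 0.05 was reached by 1 of the 8 genes, Chd5, in region 1 and by 0 in the other regions, and by 828, 215, 522, 341 and 546 of all genes in regions 1 to 5. An exact permutation test of 2 animals against 2 cannot give a two-sided p below 0.333.

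Region 1 had the largest differences among these 8 genes. Chd5 stood at 25.8 FPKM in control 1, 26.3 in control 2, 20.9 in stimulated 1 and 17.1 in stimulated 2, a log2 difference of -0.46 (SE 0.14, limma adjusted p = 0.712). Chd7, whose values are given above, had a log2 difference of 0.55 (SE 0.22, limma adjusted p = 0.712). In region 1 the stimulated libraries also held more lesion phagocyte RNA (137 and 248 against 45.5 and 49.5 FPKM) and less general neuron marker RNA (1148 and 804 against 1218 and 1221 FPKM), and the part of these in the values was not tested.

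Groups did not overlap for 6 of the 8 genes Chd1 to Chd8 in region 1, where 40.6% of all genes had groups without overlap. The numbers were 2 of 8 in region 2 (27.0% of all genes) and 3 of 8 in region 3 (29.9%). At the lesion they were 2 of 8 (20.2% of all genes) and below it 3 of 8 (24.6%). Chd9 also had groups without overlap in regions 1, 3 and 5, but the choice of the gene had already used its levels, so it is not counted. Over the 5 regions the differences of Chd1 to Chd8 ranged from -0.46 to 0.55 on the log2 scale, while those of Chd9 ranged from -3.10 to 0.91.

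**Figure D5:**
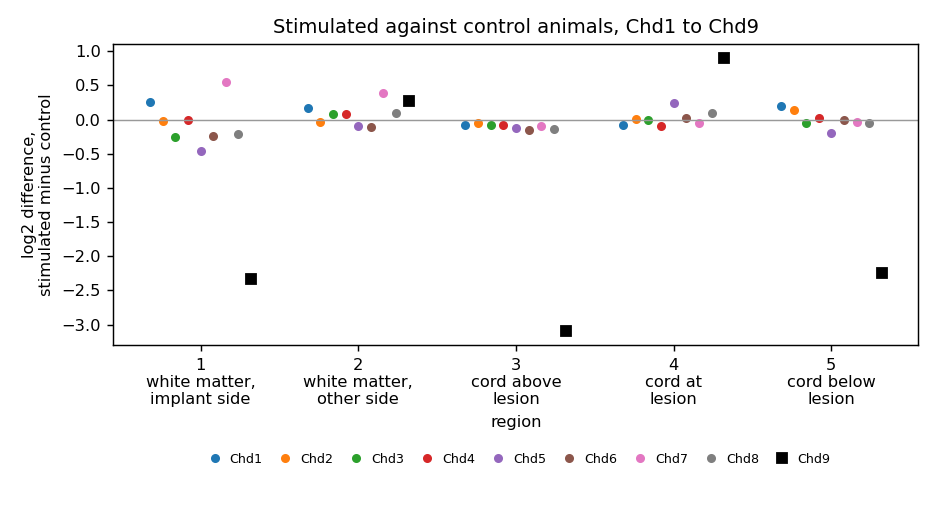
Mean log2 difference, stimulated minus control, for each Chd gene in each region (2 animals a group). Chd1 to Chd8 (colored circles) stay between -0.46 and 0.55, and Chd9 (black squares) lies at -2.33, -3.10 and -2.25 in regions 1, 3 and 5 and at 0.28 and 0.91 in regions 2 and 4.

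In the order of the 9 genes by mean level, Chd9 was first and Chd7 last in every region. The range of Chd9 overlapped that of the second gene in regions 1, 3 and 5. The places of other genes, the NuRD motors and Chd6 among them, differed between regions. Below Chd9, the NuRD motors led, with Chd3, Chd4 and Chd5 between 22.1 and 35.0 FPKM on average in regions 1 and 2. In cord, Chd4 led at 26.3 to 30.6 FPKM, followed by Chd3 at 12.4 to 16.8 FPKM, and Chd6 (10.2 FPKM) exceeded Chd5 (8.04 FPKM) in region 4 without overlap. Chd1, Chd2 and Chd8 held means of 5.03 to 7.64 FPKM in all regions, and the ranges of Chd2 and Chd8 overlapped in all regions but region 3. The range of Chd7 did not overlap that of the next gene in any of them.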

How the data were processed

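The 9 genes and the gene lists were chosen with earlier results of these data known. The authors deposited FPKM values per gene, made from 51 bp paired reads of ribosome-depleted total RNA that were sequenced together, aligned to Rnor6 with TopHat 2.1.0 and quantified with Cufflinks 2.2.1, and raised to 0.1 where lower. Fragment numbers and depth per gene are not in the deposited FPKM table, so the only measure of error is how far the animals of a group lie apart. The study names default settings and no strand setting; by default these tools do not use the strand, so overlapping and antisense genes cannot be told apart. FPKM were log2-transformed, and the 15210 genes with at least 1 FPKM in any library were fitted with limma 3.58.1 (lmFit, eBayes with trend) in R 4.3.3. Stimulation was tested in the 4 libraries of each region. Regions were tested in all 20 libraries with a mean per region and no term for the animal. Both used Benjamini-Hochberg adjustment over all genes and a threshold of 0.05. Chd9 was not tested.

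Regions of an animal are paired by the sample titles. Over all genes, deviations of the same animal correlated at 0.41 to 0.77 between regions 1 and 2, at 0.14 to 0.26 between regions 3 and 4 and at -0.09 to 0.11 between regions 4 and 5. Alternatives were log2(FPKM + 1), no filter, 1 FPKM in 2 libraries, quantile normalization, upper-quartile scaling, eBayes without trend, a single model, replicate blocks and leaving out each animal. A gene of the cortical neuron marker list is not reported here and was left out of that list's values. Named genes were all 9 Chd genes, the 5 most and 3 least correlated with Chd9, and from each pathway list the called genes of largest difference. The fits were tested on simulated data. RefSeq sequences are of build GRCr8, another build than that of the files, so no coordinates of the files are given. Python 3.11.15, pandas 2.3.3 and scipy 1.17.1 served for the rest.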

Additional observations from a re-analysis of the deposited data

Results flagged for a closer look

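In 54 groups, the 9 genes in each region and in white matter as a whole, a single library stood apart by Dixon's test, where chance alone sets apart about 1 group in 20. It was Chd1 in region 3 of control 1, at 5.41 FPKM, where the other 3 libraries held 4.86 to 4.94 FPKM.

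For 3 genes both stimulated libraries lay above both control libraries in some regions and below them in others, and these differences between regions were not tested. Groups without overlap were common at 2 animals against 2, from 20.2% of all genes in region 4 to 40.6% in region 1. The share of all genes that changed direction in this way was not computed, so the count is not a result about the Chd genes. The log2 difference of Chd2, stimulated minus control, was -0.049 in region 3 and 0.13 in region 5. That of Chd5 was -0.46 in region 1 and -0.20 in region 5, but 0.25 in region 4. That of Chd8 was -0.21 in region 1 and -0.14 in region 3, but 0.099 in region 2 and 0.092 in region 4. The limma adjusted p of each of these values was at least 0.712.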

How the results depend on the processing

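The 9 differences of Chd1 to Chd8 between regions that passed the limma test kept their direction in all 99 alternative fits and lost their call in 7, all of which left out an animal. The count of Chd genes called in white matter against cord was 5 or 6, that of region 1 against region 2 ranged from 0 to 3 and that of region 4 against region 3 from 1 to 5 when each animal was left out. For stimulation it was 0 in every region under every alternative run.

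Quantile normalization and upper-quartile scaling turned the sign of Chd8 in white matter against cord (0.059 and 0.055), of Chd8 with stimulation in region 2 (-0.035 and -0.0070) and of Chd2 with stimulation in region 3 (0.013 and 0.023). Chd8 in white matter against cord also turned without stimulated 2 (0.018, over a range of -0.060 to 0.018), and Chd9 with stimulation in region 4 ranged from -0.038 to 1.85 when each animal was left out. None of these had passed a test, and the cause was not tested. The log2 range of Chd9 over libraries was 3.37 to 4.02 when each animal was left out.

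Of all genes, white matter against cord called 3808 up and 7169 down, and 5054 and 6018 after quantile normalization. Region 1 against region 2 called 1043 up and 267 down, 943 and 841 after quantile normalization, 1316 and 930 (2246 in all) after upper-quartile scaling, 698 without a filter, and 26 to 3674 when each animal was left out. Region 4 against region 3 called 2984 (1031 up), 4842 after quantile normalization, 4602 (2115 up) after upper-quartile scaling, and 523 to 4909 when each animal was left out. Region 4 against region 5 called 142 up and 1074 down, 195 and 275 after quantile normalization, 329 and 299 after upper-quartile scaling, 578 without a filter, 1966 with the animal as a replicate block, and 5 to 1097 when each animal was left out. Stimulation called 0, 0, 0, 0 and 3 genes in regions 1 to 5, 6, 1, 3, 0 and 22 without a filter, 1, 1, 1, 1 and 18 in a single model, and at most 228, 548, 0, 140 and 147 when an animal was left out, which leaves a lone library in its group that is assumed to vary like the other group.

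The animal as a replicate block changed no call of Chd1 to Chd8 between regions. Control and stimulated animals share only a replicate number, and the deviations of same-numbered animals correlated at -0.21, -0.10, -0.11, 0.32 and -0.16 in regions 1 to 5. With the replicate number as a block, stimulation called 443 genes in region 5, and with crossed numbers, an alternative chosen after seeing the data, 118 in region 4 and 0 in region 5, with 0 of the 8 Chd genes in each. With 2 animals a group and no fragment numbers per gene in the table, precision rests on the spread between these animals.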
